A study of Mus musculus with 4 samples.

Results

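Peaks of Flag-tagged Nynrin were examined at 10 mouse genes that encode proteins of neutrophil granules and cytosol. They are the serine protease genes Elane, Prtn3 and Ctsg, the peroxidase gene Mpo, the specific and gelatinase granule genes Ltf, Camp, Mmp8 and Lcn2, and the calprotectin genes S100a8 and S100a9. The genes were taken by name, at their mm10 bounds, from 21887 protein-coding genes on chromosomes 1 to 19, X and Y. Every peak whose summit lay in one of them or within 10 kb of either end was taken, which gave 24 of 12702 peaks in replicate 1 and 33 of 25787 in replicate 2. A peak that served neighbouring genes was counted once.

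The data are 2 Flag ChIP-seq peak lists from lineage-negative bone marrow cells, which are marrow cells depleted of cells with mature-lineage surface markers, of C57BL/6 mice that were 8 weeks old and carried a 3xFlag-Nynrin transgene. The series also has 2 input libraries, which were not analysed here. The promoter that drives the transgene, the number of animals and whether the replicates came from separate animals are not given in the sources used here, so agreement between replicates may be technical. All libraries carry the transgene, and no untagged or wild-type library was used here. Peak lists hold no expression values and no read counts, so the cells could not be checked against markers and the depth behind each peak is unknown. With 1 condition, no test between groups was made, and the main counts are set beside the share of all protein-coding genes under the same rule.

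Neutrophils form their granules in waves as they mature in the marrow. Azurophil granules, filled at the promyelocyte stage, carry myeloperoxidase and the serine proteases neutrophil elastase, proteinase 3 and cathepsin G. Specific and gelatinase granules, filled later, carry lactoferrin, the cathelicidin precursor, collagenase and lipocalin-2, and the S100A8/S100A9 dimer, calprotectin, fills the cytosol of mature cells. Nynrin encodes a protein with a NYN domain, a fold shared with ribonucleases.

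A summit no more than 1000 bp from either end of the gene, termed an end summit, was found in both replicates at 4 of the 10 genes, S100a8, S100a9, Ltf and Mmp8, and at 31.9% of all protein-coding genes. Elane, Prtn3, Ctsg and Lcn2 had one in replicate 2 alone, a pattern found in 13.6% of all genes. Mpo and Camp had none in either replicate, as did 53.8% of all genes. No member had one in replicate 1 alone (0.672% of all genes). The share called in both replicates is near that of all genes, and the members differed mainly in where their peaks lay and how many there were. Counting any overlap of a peak with the same window gave the same 4 genes, beside 33.7% of all genes. Among peaks with a fold enrichment of at least 5, Mmp8, S100a8 and S100a9 had an end summit in both lists, which is 3 of the 10 genes beside 9.52% of all genes. The same 3 genes were called among peaks with a −log10 q of at least 5, beside 21.1%. At both cutoffs S100a9 was called through summits at opposite ends, its start in replicate 1 and its transcription end in replicate 2. Counted in each list by itself, whatever the other list held, 4 genes had an end summit in replicate 1 (32.6% of all genes) and 8 in replicate 2 (45.5%), so the count rests on which list is used.

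**Figure D1:**
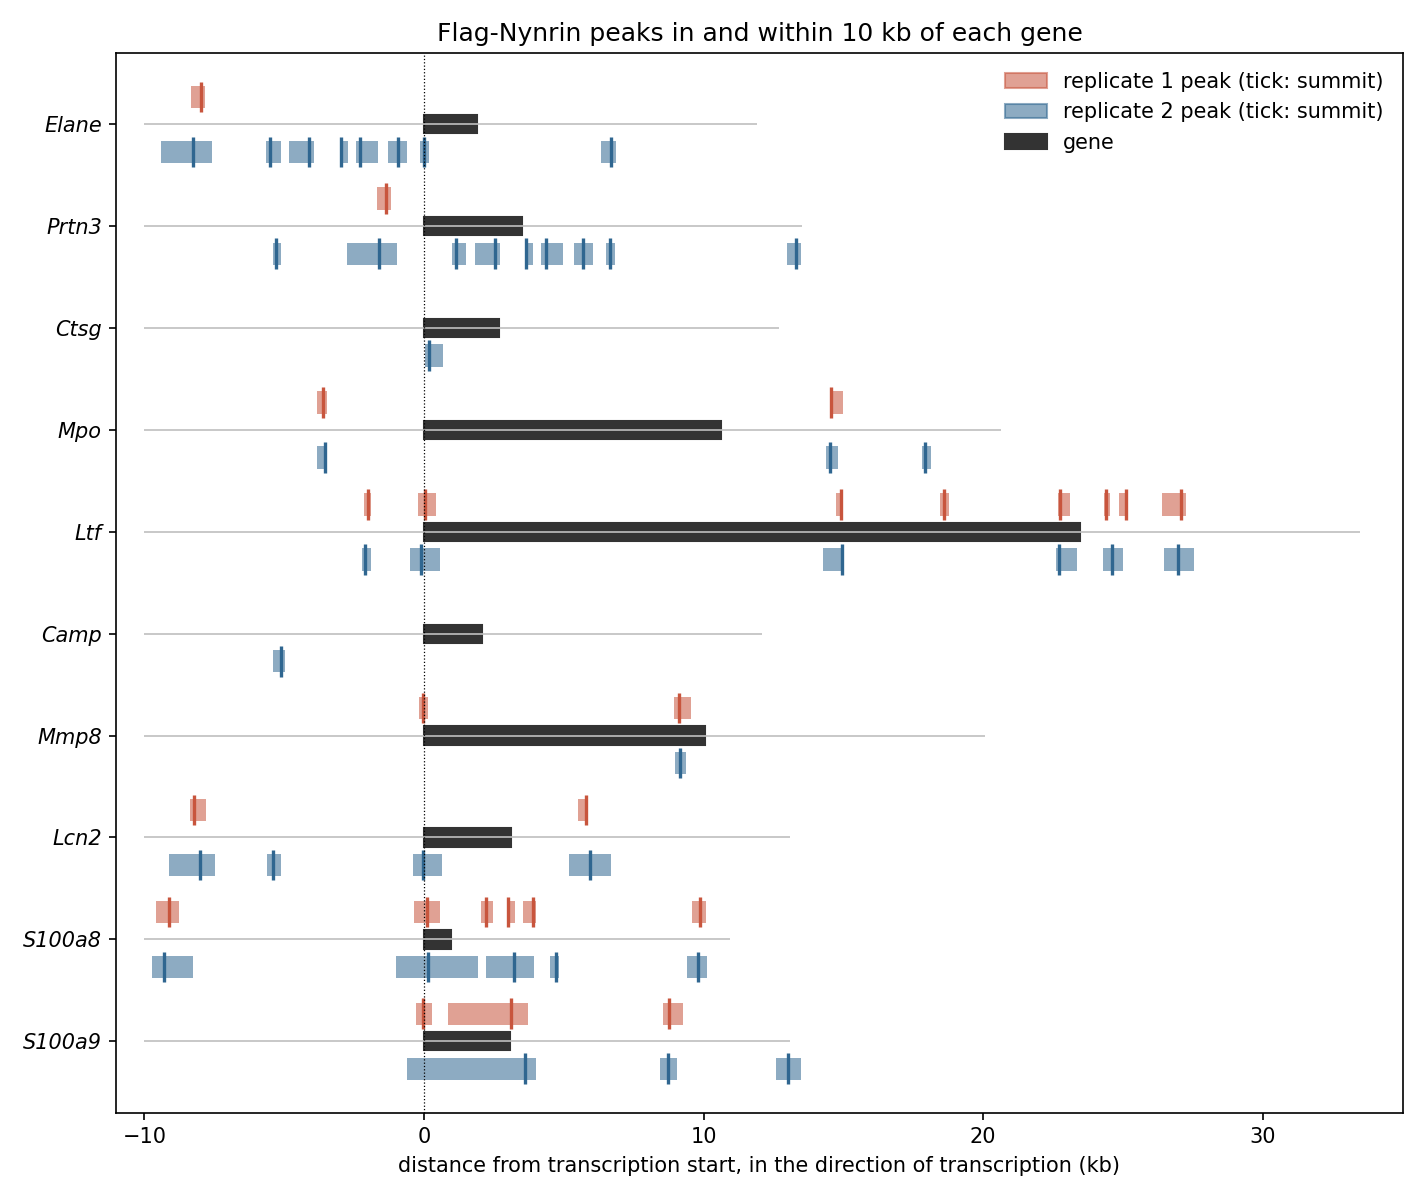
Peaks (boxes) and summits (ticks) of replicate 1 above and replicate 2 below each gene, drawn by distance from the transcription start in kb, in the direction of transcription; grey lines span the gene and 10 kb either side. Overlapping peaks recur in both replicates around S100a8, S100a9, Ltf and Mpo, while the row of peaks from Prtn3 to Elane belongs to replicate 2.

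The upstream sequences of 5 members are shown as examples of starts with a peak in both replicates, in one or in none. A peak covered the transcription start of S100a8, S100a9 and Ltf in both replicates, that of Elane in replicate 2 alone and that of Mpo in neither replicate. Each sequence is the 250 bases before the start, read 5′ to 3′ on the strand of the gene, from RefSeq on GRCm38.p6, the assembly behind mm10. The stretches are chr3:90668821-90669070 (S100a8, plus strand), chr3:90695722-90695971 (S100a9, minus strand), chr9:111019042-111019291 (Ltf, plus strand), chr10:79886062-79886311 (Elane, plus strand) and chr11:87793534-87793783 (Mpo, plus strand). Capitals mark matches, on either strand, to any of several motifs. These were the element TATAAA found upstream of many regulated genes, the motif CCAAT recognised by NF-Y factors, the Sp1-type motif GGGCGG, the C/EBP-type motif TTNNGCAA and the motif GAGGAA at the core of many PU.1 sites.
S100a8: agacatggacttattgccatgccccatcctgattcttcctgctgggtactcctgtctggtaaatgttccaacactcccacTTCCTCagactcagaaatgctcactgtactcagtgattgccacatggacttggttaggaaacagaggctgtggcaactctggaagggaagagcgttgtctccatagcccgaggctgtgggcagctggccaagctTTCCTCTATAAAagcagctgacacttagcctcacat
S100a9: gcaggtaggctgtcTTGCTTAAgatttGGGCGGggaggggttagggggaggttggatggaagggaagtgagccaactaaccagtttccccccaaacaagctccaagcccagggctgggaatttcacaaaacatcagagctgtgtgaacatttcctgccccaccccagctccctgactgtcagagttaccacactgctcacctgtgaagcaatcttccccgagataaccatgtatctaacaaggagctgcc
Ltf: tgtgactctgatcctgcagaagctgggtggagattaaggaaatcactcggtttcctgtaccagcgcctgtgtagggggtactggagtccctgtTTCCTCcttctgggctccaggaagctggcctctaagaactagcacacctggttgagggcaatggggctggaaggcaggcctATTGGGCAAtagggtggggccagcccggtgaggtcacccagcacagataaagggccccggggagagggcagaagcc
Elane: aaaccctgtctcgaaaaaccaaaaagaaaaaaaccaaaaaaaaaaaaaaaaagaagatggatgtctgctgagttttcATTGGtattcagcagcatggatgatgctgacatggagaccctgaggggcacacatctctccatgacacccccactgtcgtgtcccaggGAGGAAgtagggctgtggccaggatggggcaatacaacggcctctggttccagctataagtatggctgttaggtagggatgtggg
Mpo: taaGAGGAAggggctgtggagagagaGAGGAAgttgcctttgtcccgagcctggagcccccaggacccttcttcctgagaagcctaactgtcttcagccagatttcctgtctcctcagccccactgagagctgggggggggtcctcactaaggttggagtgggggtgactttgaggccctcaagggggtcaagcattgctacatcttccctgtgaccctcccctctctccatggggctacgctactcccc

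Matches were searched in the promoter from 250 bases before to 50 after the start, which the table held for all 10 members and for 17492 genes in all. GAGGAA or its complement occurred in 8 of the 10 promoters, all but Camp and S100a9, and in 27.5% of all promoters. TTNNGCAA occurred in 4, those of Ltf, Mmp8, Lcn2 and S100a9, and in 10.1% of all promoters. TATAAA occurred in 4 members and in 13.3% of all promoters. In S100a8 it began at base -30, directly after a GAGGAA complement that began at -36. In S100a9 it began at base 1, past the printed stretch, and in Ctsg and Mmp8 its complement began at -237 and -3. In Ltf the CCAAT complement at -76 overlapped the TTNNGCAA match at -75. CCAAT was found in 3 members (39.2% of all promoters), GGGCGG in 2 (46.3%) and TGACGTCA, the cyclic AMP response element, in 0 (2.33%). AACNG, the core of MYB sites, was found in all 10 but also in 79.2% of all promoters and is not marked. A match describes letters in this window and not a bound site.

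S100a8 and S100a9 encode the calcium-binding subunits of calprotectin, and their peaks were among the strongest in the members. S100a8 lies on chromosome 3 from 90669071 to 90670034 on the plus strand. Its start peak ran from 90668723 to 90669628 in replicate 1, with a summit 94 bp inside the gene and a fold enrichment of 6.82, higher than 95.6% of that list. In replicate 2 it ran from 90668084 to 90671008, with a summit 133 bp inside the gene and a fold enrichment of 7.17, higher than 80.2% of that list. The summits of the 2 replicates were 39 bp apart. Fold enrichment is the authors' ratio of signal over the background of the peak caller, and it was used here only to describe, rank and filter peaks within a list. The replicate 2 peak was 2925 bp wide, wider than 99.2% of its list, whose median was 620 bp, so it covered the whole gene.

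S100a9 lies at 90692630 to 90695721 on the minus strand, so its start is the higher coordinate. In replicate 1 it had 2 end peaks. The start peak, from 90695421 to 90696006, had its summit 43 bp upstream of the start and a fold enrichment of 6.25, higher than 92.4% of the list. The other, from 90692001 to 90694867, was 2867 bp wide, wider than 99.8% of the list, with its summit 27 bp beyond the transcription end and a fold enrichment of 3.54. In replicate 2 a single peak from 90691721 to 90696329 covered the whole gene. At 4609 bp it was wider than 99.9% of its list, and its summit lay 506 bp beyond the transcription end, with a fold enrichment of 6.08. The replicates thus placed the strongest summit of S100a9 at opposite ends, although peaks of both covered the start. Counted by summits near the start, only S100a8 and Ltf among the 10 genes were called in both replicates, beside 34.5% of the genes with a listed start. Counted by peaks that cover the start, S100a9 was also called, which made 3 of 10 beside 30.3%.

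The 22595 bases between S100a8 and S100a9 held 7 summits in replicate 1, and all 7 peaks overlapped a replicate 2 peak. They held 6 in replicate 2, of which 5 peaks overlapped a replicate 1 peak. Around S100a8, the replicate 1 summits downstream of the gene lay 1266, 2054, 2953 and 8906 bp from its end, with fold enrichments of 3.98, 3.41, 4.26 and 3.84. In replicate 2 they lay 2260, 3762 and 8835 bp from its end, with fold enrichments of 5.05, 2.84 and 4.25. A single replicate 2 peak, 1732 bp wide, overlapped all 3 of the nearer replicate 1 peaks. Upstream of S100a8, summits 9124 bp (replicate 1, fold enrichment 4.67) and 9311 bp (replicate 2, 6.38) from the start were shared too. On the S100a9 side, a shared peak had its summit 5679 bp from the transcription end in replicate 1 (fold enrichment 4.52) and 5625 bp in replicate 2 (4.78).

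Ltf encodes lactoferrin, an iron-binding protein of specific granules, and spans 111019292 to 111042766 on chromosome 9, plus strand. The replicate 1 peak over its start covered 111019093 to 111019724, with the summit 29 bp inside the gene, and the replicate 2 peak covered 111018805 to 111019868, with the summit 115 bp upstream. The fold enrichments were 4.96, higher than 76.0% of the replicate 1 list, and 4.14, higher than 36.2% of the replicate 2 list. Ltf had 8 peaks in replicate 1 and 6 in replicate 2, although the replicate 2 list is the longer one. Of the 8, 7 overlapped a replicate 2 peak, and all 6 of replicate 2 overlapped a replicate 1 peak. Besides the start, these shared sites lay about 2 kb upstream (1990 and 2106 bp), deep in the gene (14903 and 14942 bp from the start), close to its end (738 and 764 bp before it in replicates 1 and 2) and beyond its end (3620 and 3493 bp past it). Summits 926 bp (replicate 1) and 1119 bp (replicate 2) past the end also belonged to overlapping peaks, and fell just inside and just outside the 1000 bp limit. The peak that replicate 2 lacked had its summit 18610 bp from the start, with a fold enrichment of 4.66.

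Mmp8 encodes neutrophil collagenase and spans 7558429 to 7568486 on chromosome 9, plus strand. The peak that made it a called gene lay near the end of transcription and not at the start. The replicate 1 peak covered 7567364 to 7567988 and the replicate 2 peak 7567405 to 7567794, with summits 951 and 901 bp before the end and 50 bp apart. Its fold enrichment of 7.10 was the highest of any member peak in replicate 1, above 96.6% of the list, and in replicate 2 it was 6.38, above 73.6% of the list. Both summits are close to the 1000 bp limit, and with a 500 bp limit Mmp8 and S100a9 were not called, which left Ltf and S100a8 (2 of 10, beside 27.9% of all genes). Replicate 1 also had a peak at the Mmp8 start, with its summit 39 bp upstream and a fold enrichment of 3.96, and replicate 2 had none there.

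Lcn2, which encodes the siderophore-binding protein lipocalin-2, spans 32384637 to 32387739 on chromosome 2, minus strand. Replicate 2 had a peak over its start from 32387077 to 32388145, with the summit 26 bp upstream and a fold enrichment of 4.52, and replicate 1 had none within 1000 bp of either end. The peaks near Lcn2 that both replicates shared were at other genes. One had its summit 29 bp (replicate 1) and 105 bp (replicate 2) from an end of 1110008P14Rik, and the other 84 and 153 bp from an end of the prostaglandin E synthase gene Ptges2. The Ptges2 peak had the highest fold enrichment of any peak in the Lcn2 window in replicate 2, at 6.69, and 4.20 in replicate 1. Camp encodes the cathelicidin precursor and spans 109847377 to 109849456 on chromosome 9, minus strand. Its one peak within 10 kb was in replicate 2, with the summit 5123 bp upstream of the start and a fold enrichment of 5.05, above 56.3% of the list.

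Prtn3 and Elane encode proteinase 3 and neutrophil elastase and are adjacent on chromosome 10, both on the plus strand, at 79879667 to 79883174 and 79886312 to 79888216. The 8550 bases from the start of Prtn3 to the end of Elane held 6 summits in replicate 2 and 0 in replicate 1. At the Elane start, a replicate 2 peak from 79886185 to 79886495 had its summit 11 bp inside the gene and a fold enrichment of 3.45. Another had its summit 944 bp upstream, with a fold enrichment of 3.79. At the end of Prtn3, replicate 2 summits lay 976 bp before and 158 and 863 bp past it, with fold enrichments of 3.99, 2.65 and 3.20. These 5 peaks were weak for their list, where between 0.589% and 29.4% of peaks had a lower fold enrichment. One peak near the pair was shared. It lay upstream of Prtn3, with its summit 1345 bp from the start in replicate 1 and 1618 bp in replicate 2, outside the 1000 bp limit, and its fold enrichments were 3.61 and 4.50. In replicate 2 a peak with its summit 336 bp from an end of Cfd, the complement factor D gene downstream of Elane, had the highest fold enrichment of the Elane and Prtn3 windows, at 5.85. Another replicate 2 peak had its summit 590 bp from an end of Plppr3, with a fold enrichment of 3.19.

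Ctsg encodes cathepsin G and spans 56099885 to 56102574 on chromosome 14, minus strand. It had one peak, in replicate 2, from 56101908 to 56102548, with the summit 168 bp inside the gene from its start and a fold enrichment of 3.99, above 29.4% of the list. Replicate 1 had no peak within 10 kb of Ctsg. Mpo encodes myeloperoxidase and spans 87793784 to 87804412 on chromosome 11, plus strand. It had no peak in the gene or within 1000 bp of it, but 2 shared peaks stood farther off. The upstream one had its summit 3601 bp (replicate 1) and 3549 bp (replicate 2) from the start, with fold enrichments of 3.66 and 3.99. The downstream one, with summits 3936 and 3893 bp past the end and fold enrichments of 4.33 and 4.52, lay inside the neighbouring lactoperoxidase gene Lpo, as did a replicate 2 peak 7310 bp past the end.

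**Figure D2:**
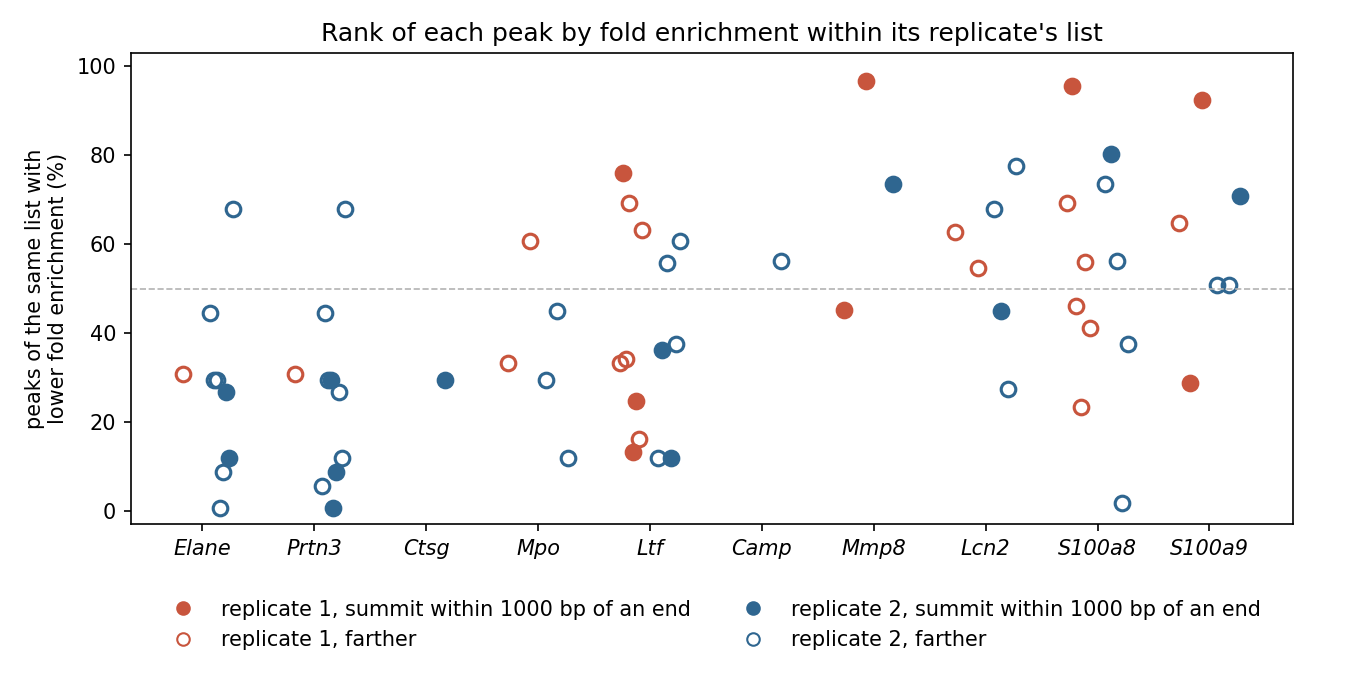
Each point is a peak in or within 10 kb of a gene, placed by the share of its own replicate's list (%) with a lower fold enrichment; filled points have a summit within 1000 bp of an end. S100a8, S100a9 and Mmp8 each have an end peak above 92% of the replicate 1 list, while the end peaks of Elane, Prtn3 and Ctsg, all of replicate 2, stay below 30%.

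Over the wider window, 8 of the 10 genes had a summit in the gene or within 10 kb in both replicates, beside 46.0% of all genes. Ctsg and Camp were the exceptions, each with a peak in replicate 2 alone. Some of the 8 counted through peaks that were not their own alone. In replicate 1, Elane and Prtn3 had only the same single peak, and the Lcn2 peaks lay at ends of 1110008P14Rik and Ptges2. The shared peak downstream of Mpo lay inside Lpo, but Mpo also counted through its shared upstream peak. Replicate 1 gave 8 genes (46.5% of all genes) and replicate 2 gave all 10 (60.8%). Just inside the 10 kb limit were a replicate 2 summit 9919 bp from S100a9 and one 9817 bp from Prtn3. Just outside was a replicate 1 summit 10199 bp from S100a9 (fold enrichment 4.26). Its peak overlapped the replicate 2 peak at 9919 bp, with summits 280 bp apart, so the limit divided a shared site. Near Camp, summits lay 11956 bp (replicate 1, 3.99) and 11812 bp (replicate 2, 4.78) away. Of the member peaks, 22 of 24 in replicate 1 (91.7%) and 19 of 33 in replicate 2 (57.6%) overlapped a peak of the other list by at least 1 bp, beside 89.2% and 41.8% of the whole lists. Their median fold enrichment was 4.09 in replicate 1 and 4.25 in replicate 2, beside list medians of 4.04 and 4.66.

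The number of summits per length of window set some members apart from most genes. In replicate 2 the Prtn3 window held 9 summits, or 3.83 per 10 kb, and no other protein-coding gene was denser. The Elane window, which overlaps it, held 8 (3.65 per 10 kb) and came next. The Prtn3 window included summits near ends of Elane, Cfd and Plppr3, and 1 of its 9 peaks overlapped a replicate 1 peak. In replicate 1 each of these windows held 1 summit, at 0.425 per 10 kb for Prtn3 and 0.457 for Elane, and 3216 and 2779 genes were denser. The S100a8 window held 6 summits in replicate 1 (2.86 per 10 kb), with 4 genes denser, and 5 in replicate 2 (2.39 per 10 kb), with 57 denser. The density of the Elane and Prtn3 windows was thus seen in a single list, while S100a8 was above the 99th percentile of all genes, 1.29 per 10 kb in replicate 1 and 1.91 in replicate 2, in both. Ltf was above it in replicate 1 (1.84 per 10 kb, 48 genes denser) and not in replicate 2 (1.38, 793 denser). S100a9, at 1.30 in each, was just above it in replicate 1 (208 genes denser) and under it in replicate 2 (998 denser). Short genes have short windows, so summits were also counted within 10 kb of the start over 17492 genes, a choice made after these densities were seen. Then no gene had more than the 8 of Elane and Prtn3 in replicate 2, and 5 genes, these included, had 8. S100a8 had 6 and 5, with 1 gene above it in replicate 1 and 54 in replicate 2. Counting ties and S100a8 itself, 6 and 190 genes had as many or more. Ltf, whose peaks spread over a long gene, had 2 in each and 453 and 1642 genes above it. None of these ranks was recounted at stricter peak cutoffs or with lists of equal length.

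**Figure D3:**
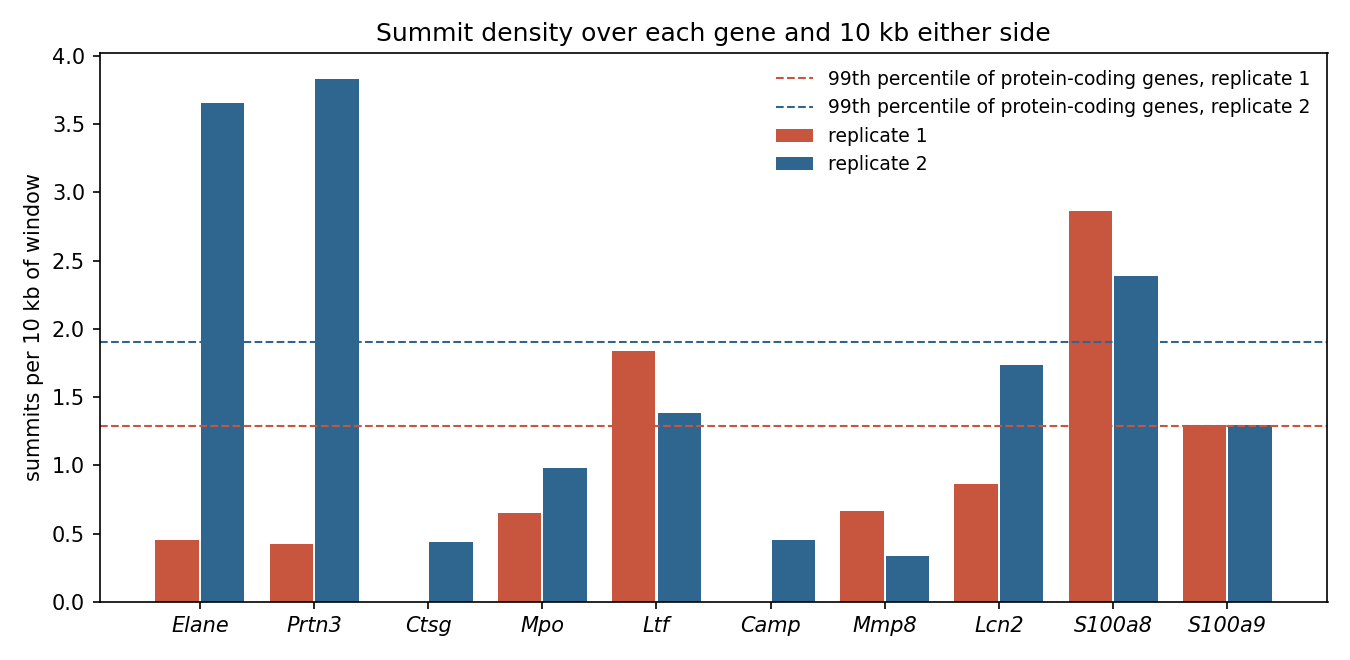
Bars give the summits per 10 kb over each gene and 10 kb either side in each replicate; dashed lines give the 99th percentile of protein-coding genes in that replicate, 1.29 and 1.91. S100a8 exceeds the line in both replicates, and Prtn3 (3.83) and Elane (3.65) exceed it in replicate 2 alone. Ltf (1.84) and, by a small margin, S100a9 (1.30) exceed it in replicate 1 alone.

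The promoters of all 10 genes were poor in CpG, the dinucleotide that is dense at most housekeeping starts. The ratio of observed to expected CpG ran from 0.0871 in Mpo to 0.464 in Ctsg, with a median of 0.151 beside 0.577 over 17492 genes, while the GC content of 46.0 to 60.7% spanned the median of all genes, 56.3%. When all genes were split into 4 equal classes by this ratio, the share with a start summit in both replicates was 1.69%, 14.1%, 48.6% and 69.8%, in order of rising ratio. The lowest class held 7 of the members, S100a8, S100a9, Ltf, Mpo, Camp, Lcn2 and Prtn3, and 2 of these, S100a8 and Ltf, were among its 74 called genes. The second class held Elane, Ctsg and Mmp8, none with a start summit in both replicates. Whatever replicate 1 held, 3 of the 7 and 2 of the 3 had a start summit in replicate 2, beside 4.99% and 26.6% of genes in those classes. Whatever replicate 2 held, 3 of the 7 and 1 of the 3 had one in replicate 1, beside 2.13% and 14.8%. The part of CpG content in these calls was not tested.

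**Figure D4:**
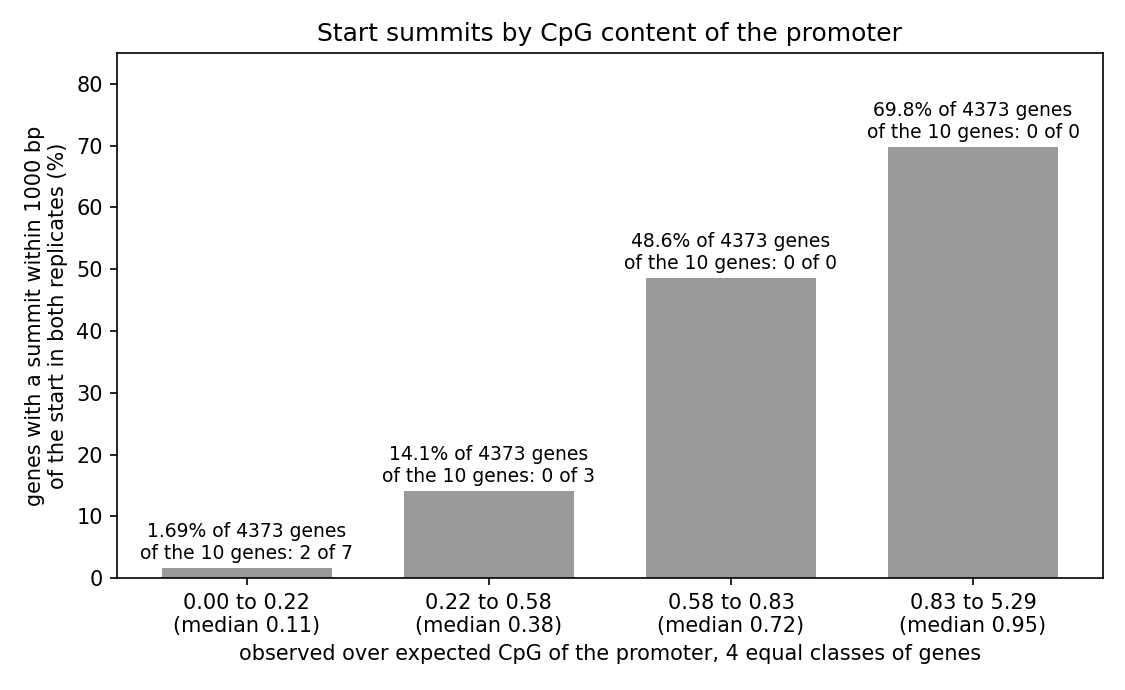
Bars give the share of genes (%) with a summit at most 1000 bp from the transcription start in both replicates, in 4 equal classes by observed over expected CpG of the promoter; labels give the called and total number of the 10 granule and S100a genes. The share is 1.69% in the lowest class, where 7 of the 10 genes lie, and 69.8% in the highest, which holds none of them.

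Genes that work with the members were counted by the same rule of end summits in both replicates. No companion list was set beside genes of like CpG content. Of 12 transcription factor genes of the granulocyte lineage, 8 were called (66.7%, beside 31.9% of all genes). Among peaks with a fold enrichment of at least 5, 1 of the 12 was called (8.33%, beside 9.52%). With a −log10 q of at least 5, 6 were called (50%, beside 21.1%). The 4 not called, among them Cebpa and Gfi1, had an end summit in replicate 2 alone (13.6% of all genes). The highest ranking were Runx1 (fold enrichment 5.45 in replicate 1 and 10.9 in replicate 2), Cebpb (4.45 and 8.77), Klf5 (4.04 and 11.2) and Cebpe (3.86 and 4.78), a factor needed for specific granule formation. Of 20 other genes listed for azurophil granules and lysosomes, 7 were called (35%, near the 31.9% of all genes). Another 10 had an end summit in replicate 2 alone, a pattern found in 13.6% of all genes. That list also held the eosinophil granule genes Epx and Prg2, which had no end summit in either replicate, as did 53.8% of all genes. Ctsc, whose product activates the granule serine proteases, ranked highest (5.64 and 6.91), and the lysosomal genes Lamp1 (4.74 and 6.91) and Gusb (4.03 and 7.44) were also among the highest.

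Of 20 other specific and gelatinase granule genes, 7 were called (35%, near the 31.9% of all genes). The highest ranking were Itgam (5.28 and 6.38) and Itgb2 (3.45 and 3.99), which encode the integrin stored in these granules, the neutrophilic granule protein gene Ngp (4.37 and 6.38) and the protease gene Adam8 (3.58 and 4.78), which shared its peak with Spef1l. The collagenase relatives Mmp9 and Mmp25 had no end summit in either replicate. Of 12 other S100a genes of the same cluster, 2 were called (16.7%, beside 31.9% of all genes). They were S100a6 (3.07 and 3.58), which shared a peak with S100a5, and S100a11 (2.98 and 5.03). S100a7a, the neighbour of S100a8, had no end summit in either replicate. Of 12 neutrophil receptor genes, 3 were called (25.0%, beside 31.9% of all genes), including Fcgr4 (4.16 and 6.64) and Itgal (2.62 and 5.58). Another 8, among them Csf3r and Cxcr2, had no end summit in either replicate, as did 53.8% of all genes. Of 6 genes for receptors or coreceptors linked to calprotectin, 3 were called (50%, beside 31.9% of all genes). They were Bsg (4.61 and 9.03), Tlr4 (4.54 and 5.05) and its partner Ly96 (3.96 and 5.55).

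By the pair of ranks of the strongest end peak in the 2 lists, the called gene outside the members nearest to S100a8 was Med26, to S100a9 Mlf2, to Mmp8 Trim12a and to Ltf Zfp983. Likeness over 2 lists is a description of rank alone.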

How the data were processed

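Flag ChIP-seq of lineage-negative marrow cells was analysed from the peak list the authors deposited for each of the 2 ChIP libraries. Per the labels' protocols, fixation was in 1% formaldehyde (10 min), and a Vazyme TruePrep kit was used on 10 ng of DNA, with 16 cycles and size selection (100 to 500 bp). The submitters' processing notes name the tools cutadapt, Trimmomatic, FastQC, Bowtie2, MACS2 and ChIPseeker, on mm10. Versions, the peak cutoff and whether input served as control are not given in the sources used here. Peak names show one call per library. Deposited fold enrichment is a linear ratio. The deposited −log10 p and −log10 q come from the peak caller, and no −log10 q was below 1.31 (replicate 1) or 1.30 (replicate 2). In all peaks used, the deposited score equalled 10 times the −log10 q without its decimals. The lists hold no counts, so depth is unknown.

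Positions are 1-based, and the summit is the peak start plus the summit offset. Gene bounds, starts, strands and promoter sequences were those of RefSeq on GRCm38.p6. A gene with several listed starts was classed for CpG by the one farthest upstream. The members and all companion lists were chosen with earlier results of these data known. Named genes are all members, protein-coding genes with an end within 1000 bp of a member peak's summit, up to 4 called genes per companion list with the highest score (the lower of its percentages of each list below it by fold enrichment), all called genes of lists with 6 or fewer, and the nearest gene by rank to each called member. A few genes chosen by this rule are not reported here. Mmp9, Mmp25, Cebpa, Gfi1, S100a7a, Csf3r, Cxcr2, Epx, Prg2 and Lpo were named after their values were seen. Counting was tested on simulated summits placed within 1000 bp of an end of 200 of 21887 genes, and 200 were recovered. This checks the counting code and not the calls in these data. Python 3.11.15, numpy 2.4.6, pandas 2.3.3 and matplotlib 3.10.9 were used.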

Additional observations from a re-analysis of the deposited data

How the results depend on the processing

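Of 65 alternative counts, 40 stayed within 1.5 times the reported count. With a replicate left out, agreement cannot be counted, and only the calls of the other list remain. Those were 4 of 10 members in replicate 1 (32.6% of all genes) and 8 in replicate 2 (45.5%). The number of members with an end summit in both replicates was 2 with a 500 bp window (27.9% of all genes). At transcription starts alone it was also 2 (34.5%). At −log10 q of at least 5 the members with a peak within 10 kb in both replicates fell to 5 of 10. The member peaks fell to 10 in replicate 1 and 16 in replicate 2. All genes called by end summits fell to 4619 (21.1%). At a fold enrichment of at least 5 these were 3 of 10, 3, 10 and 2084 (9.52%). The share of all genes with a peak within 10 kb was not counted at these settings, so the 5 and 3 have no background. All called genes numbered 3935 (18.0%) when the replicate peaks had to overlap by 50% of both. Ltf, Mmp8 and S100a9 (3 of 10) were then called, and S100a8 was not. With the replicate 2 list cut to the length of the replicate 1 list, 13 member peaks were left in replicate 2. Mmp8, S100a8 and S100a9 (3 of 10, beside 30.1% of all genes) were then called, and Ltf was not. At −log10 q of at least 5, beside 21.1% of all genes, the azurophil list had 3 of 20 called (15%) and the specific list 2 of 20 (10%). The S100a and receptor lists each had 0 of 12, the transcription factors 6 of 12 (50%) and the calprotectin receptors 2 of 6 (33.3%). At a fold enrichment of at least 5, beside 9.52% of all genes, the azurophil and specific lists each had 1 of 20 called (5%). The S100a and receptor lists each had 0 of 12, the transcription factors 1 of 12 (8.33%) and the calprotectin receptors 0 of 6. With a 3000 bp window 5 of 12 S100a genes and 6 of 12 receptor genes were called, beside 36.8% of all genes. Each of these settings changes by construction how many peaks or summits can count. With a replicate left out, 8 to 10 members had a peak within 10 kb and 7128 to 9954 of all genes had an end summit. No paired analysis was possible because the values come from peak lists of a single group, the Flag ChIP libraries, and no value of the input libraries was used here.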
